A study of Mus musculus with 6 samples.

Results

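The 37 genes whose symbol starts with mt-, the transcripts of mitochondrial DNA, were taken from the raw counts of 55291 genes in RNA-seq libraries of WT MEFs (mouse embryonic fibroblasts). They comprise 13 mRNAs, 2 rRNAs and 22 tRNAs, and every gene with that prefix was kept, whatever its count. By the strand in GENCODE vM21 (GRCm38), 28 are heavy-strand genes (12 mRNAs, both rRNAs and 14 tRNAs) and 9 are light-strand genes (mt-Nd6 and 8 tRNAs).

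The WT MEFs received vehicle, 1 μM MASM7 for 6 h or 20 μM MFI8 for 6 h, and each of the 3 groups holds 2 libraries, described as independent biological replicates. MASM7 is an activator and MFI8 an inhibitor of the mitofusins, the outer-membrane GTPases that fuse mitochondria. The labels do not say how long vehicle was applied, and give the sequenced molecule as polyA RNA. The question addressed here is how the mitochondrial transcripts, by class and by strand, compare between treated and vehicle libraries. Since MASM7 and MFI8 were given at different concentrations, compound and concentration cannot be told apart in MFI8 against MASM7. In RNA from whole cultures, fewer cells of a type and less RNA per cell cannot be told apart either.

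Mitochondrial DNA is a small circle that encodes subunits of the respiratory chain and ATP synthase together with the rRNAs and tRNAs needed to translate them inside the organelle. Both strands are transcribed by the mitochondrial polymerase into long precursors, from which tRNAs are cut out, releasing the mRNAs and rRNAs between them. Nuclear genomes hold copies of pieces of mitochondrial DNA, and reads from a piece that is identical in both places cannot be assigned by sequence. Mature mitochondrial tRNAs are short and carry no poly(A) tail, so few of their molecules are captured by a protocol that selects such tails.

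The sequences below are shown because they bear on which transcripts can be counted apart from others. All are from GENCODE vM21 transcripts on GRCm38, 5′ to 3′. The first 60 bases of mt-Co2 (cytochrome c oxidase subunit, chrM:7013-7696) were the same, base for base, as those of the nuclear pseudogene Gm28661 (chr1:24614885-24615565, minus strand), so no base is in capitals.
mt-Co2: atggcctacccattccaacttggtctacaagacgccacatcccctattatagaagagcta
Gm28661: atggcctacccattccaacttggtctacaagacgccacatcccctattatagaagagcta

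For mt-Co1, the catalytic subunit of the same enzyme (chrM:5328-6872), and Gm13340 (chr2:22588103-22589647, minus strand), the capitals mark the 2 bases that differ.
mt-Co1: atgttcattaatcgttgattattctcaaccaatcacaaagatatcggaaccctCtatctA
Gm13340: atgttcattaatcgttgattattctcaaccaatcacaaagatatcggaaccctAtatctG

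For mt-Nd6, a complex I subunit and the light strand's mRNA (chrM:13552-14070), and Gm11408 (chr4:80003396-80003914), the capitals mark the 2 differing bases as well.
mt-Nd6: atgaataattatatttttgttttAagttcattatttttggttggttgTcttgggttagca
Gm11408: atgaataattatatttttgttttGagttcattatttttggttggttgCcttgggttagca

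In mt-Nd4, another complex I subunit (chrM:10167-11544), the capitals in bases 847 to 906 begin where the identical stretch of Gm28439 (chr1:24611535-24612410, minus strand) ends.
mt-Nd4: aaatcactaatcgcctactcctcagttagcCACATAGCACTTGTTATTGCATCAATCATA

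The last 30 bases of mt-Nd5 and of mt-Nd6 are shown because these genes lie on opposite strands and share the 14 bases at chrM:13552-13565, in capitals. The tRNAs mt-Ti (isoleucine, chrM:3706-3774) and mt-Tq (glutamine, chrM:3772-3842) share 3 bases in the same way.
mt-Nd5 end: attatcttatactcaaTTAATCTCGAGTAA
mt-Nd6 end: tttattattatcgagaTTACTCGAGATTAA
mt-Ti: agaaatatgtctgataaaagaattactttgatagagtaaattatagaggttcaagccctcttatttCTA
mt-Tq: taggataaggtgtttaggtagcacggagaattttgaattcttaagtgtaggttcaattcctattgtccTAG

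The neighbours mt-Tt (threonine, heavy strand, chrM:15289-15355) and mt-Tp (proline, light strand, chrM:15356-15422), shown without capitals, end side by side on opposite strands and returned different values with MFI8.
mt-Tt: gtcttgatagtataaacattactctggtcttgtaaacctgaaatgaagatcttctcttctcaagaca
mt-Tp: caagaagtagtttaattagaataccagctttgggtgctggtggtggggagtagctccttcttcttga

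Counts reached 17 of the 37 genes at 10 or more in any library, and the other 20 stayed under 10 counts in all 6 libraries. The counted genes were mt-Rnr1, mt-Rnr2, the mRNAs mt-Nd1, mt-Nd2, mt-Co1, mt-Nd4, mt-Nd5, mt-Nd6 and mt-Cytb, and the tRNAs mt-Tl1, mt-Ti, mt-Tq, mt-Tm, mt-Tw, mt-Ta, mt-Tt and mt-Tp. Of these, 14 had at least 10 counts in every library, and mt-Ti, mt-Tq and mt-Ta did not. Those under 10 were 6 heavy-strand mRNAs, 9 heavy-strand tRNAs and 5 light-strand tRNAs, with 9 the highest single count among them. The 5 heavy-strand tRNAs mt-Tf, mt-Td, mt-Tg, mt-Tk and mt-Tr had 0 counts throughout. A count of 0 allows up to 3 counts, or 0.132 CPM (counts relative to the library total, scaled to 1000000) in the shallowest library, and covers counting error only.

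The 6 mRNAs under 10 counts were far below their neighbours on the same strand. In the order vehicle 1 and 2, MASM7 1 and 2, MFI8 1 and 2, mt-Co2 had 3, 0, 2, 1, 2 and 3 counts. The neighbouring mt-Co1 had 125965, 152748, 159839, 158219, 109351 and 153989. No library and no group departed from this pattern. The ATP synthase subunit mRNA mt-Atp6 (chrM:7927-8607) had 2, 3, 0, 0, 2 and 1 counts, and mt-Atp8 (chrM:7766-7969), of the same enzyme, had 1, 1, 0, 2, 1 and 1. The cytochrome c oxidase subunit mRNA mt-Co3 (chrM:8607-9390) had 5, 2, 4, 4, 1 and 2. The complex I subunit mRNAs were as low, mt-Nd3 (chrM:9459-9806) with 0, 0, 2, 0, 0 and 0 and mt-Nd4l (chrM:9877-10173) with 0, 1, 0, 1, 1 and 1. These counts give no comparison between groups.

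The low mRNAs lay together, and most were present in the nucleus letter for letter. Each member was split into all windows of 50 bases, and windows found exactly in a GENCODE transcript of a nuclear gene were counted. All windows of mt-Co2 were found there, as were 99.86% of those of mt-Co3, 99.53% of mt-Atp6, 98.79% of mt-Nd4l and 97.99% of mt-Nd3. The share was 62.23% for mt-Nd4 and 51.14% for mt-Co1, 8.19% for mt-Nd2, 7.61% for mt-Nd5 and 1.04% for mt-Rnr2. It was 0 for mt-Nd1, mt-Cytb, mt-Nd6, mt-Rnr1, mt-Atp8 and every tRNA.

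**Figure D1:**
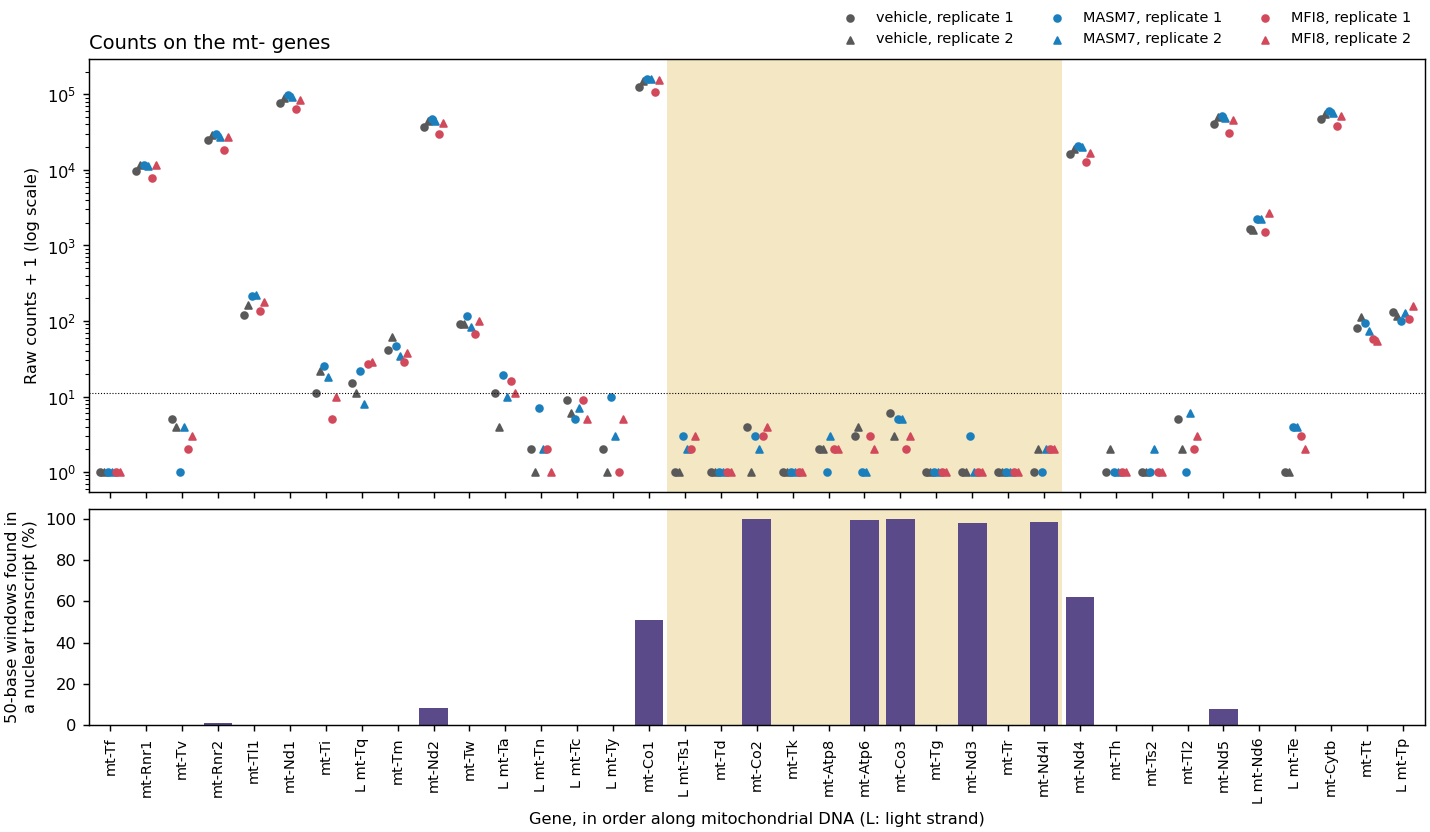
Upper panel: raw counts plus 1 on a log axis for the 37 mt- genes in their order along mitochondrial DNA, with a point for each of the 6 libraries and a dotted line at 10 counts. Lower panel: percent of each transcript's 50-base windows found exactly in a nuclear transcript. The shaded 11 genes, between mt-Co1 and mt-Nd4, have at most 5 counts in any library, and 5 of their 6 mRNAs have nearly all windows shared.

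The nuclear matches of this stretch included 7 unprocessed pseudogenes on the minus strand of chromosome 1, between 24611535 and 24616197. Others lay elsewhere, such as Gm13341 on chromosome 2, which matches mt-Co2. From each copy on chromosome 1 to the next, the 7 were as far apart as the mitochondrial genes they copy, within 1 base in all 6 intervals. The mitochondrial stretch that these 7 span, chrM:6390-11042 or 4653 bases, holds 11 members whole: mt-Ts1, mt-Td, mt-Co2, mt-Tk, mt-Atp8, mt-Atp6, mt-Co3, mt-Tg, mt-Nd3, mt-Tr and mt-Nd4l. Of these, 11 of 11 had at most 5 counts in any library, against 9 of the 24 members wholly outside, all tRNAs, that stayed under 10. The mRNA mt-Atp8 and the 5 tRNAs within the stretch have no window in an annotated nuclear transcript, and the nuclear bases between the pseudogenes were not examined here. Whether shared sequence accounts for the low counts was not tested, since reads were not used.

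Per length, the counted transcripts spanned a wide range in vehicle, given here in the authors' TPM. The highest levels were mt-Co1 at 12554 and 13978 and mt-Nd1, a complex I subunit, at 12353 and 13322, and these overlapped. Below them came mt-Cytb, the cytochrome b of complex III, at 6444 and 6897, then mt-Nd2, of complex I, at 5532 and 6076, and mt-Nd5 at 3398 and 3915. Next were the large-subunit rRNA mt-Rnr2 at 2417 and 2602, mt-Nd4 at 1794 and 1967 and the small-subunit rRNA mt-Rnr1 at 1544 and 1725. The light-strand mRNA mt-Nd6 was the lowest of the mRNAs and rRNAs counted, at 488.3 and 440.5. Apart from mt-Co1 and mt-Nd1, neighbours in this order did not overlap in the 2 vehicle libraries. For mt-Co1 and mt-Nd4, TPM divides by the full length although part of it is shared with nuclear copies, so their places in this order are uncertain. How well each transcript was captured as polyA RNA was not measured. The order, with the rRNAs and mt-Nd6 in it, is therefore one of captured RNA and not of amounts in the cell.

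Heavy-strand mRNAs made up 90.25% to 91.02% of the mitochondrial counts of a library and the rRNAs 8.347% to 9.035%. The light-strand mRNA mt-Nd6 made up 0.3546% to 0.6207% and all 22 tRNAs 0.1281% to 0.143%. Of all counts in a library, the 37 genes together took 1.74% ± 0.112 (SD, n = 2) with vehicle, 1.561% ± 0.0729 with MASM7 and 1.399% ± 0.0378 with MFI8. The exact 95% binomial interval of such a share reached at most 0.00523 percentage points to either side, counting error only. The groups did not overlap, and the exact two-sided permutation p was 0.33 in each comparison, the smallest that 2 libraries against 2 allow. Without vehicle 2, the MASM7 difference of -0.179 percentage points was -0.1001.

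With MFI8, the mRNAs and rRNAs of the heavy strand measured lower than with vehicle, with log2 fold changes from -0.43 to -0.25, while mt-Nd6 overlapped with vehicle. In CPM scaled by TMM, the complex I subunit mRNA mt-Nd5 measured 1765 and 2008 under vehicle and 1331 and 1477 under MFI8. Its neighbour mt-Nd4 measured 704.1 and 761.8 against 553.2 and 547.4. Both MFI8 libraries were below both vehicle libraries for either gene. The log2 fold change was -0.43 ± 0.0756 (SE) for mt-Nd5 and -0.41 ± 0.0547 for mt-Nd4, with adjusted p = 0.113 and 0.0924 in edgeR's quasi-likelihood test. Across all genes tested, 0 of 14290 (0%) had an adjusted p under 0.05 in this comparison.

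The cytochrome b mRNA mt-Cytb measured 2099 and 2218 CPM with vehicle and 1656 and 1674 with MFI8, a log2 fold change of -0.37 ± 0.058 (edgeR adjusted p = 0.0924). The complex I mRNA mt-Nd1 measured 3366 and 3584 against 2783 and 2745, or -0.33 ± 0.0535 (edgeR adjusted p = 0.0924). The other complex I mRNA upstream, mt-Nd2, measured 1635 and 1773 against 1309 and 1353, or -0.36 ± 0.061 (edgeR adjusted p = 0.107). None of these 3 overlapped between the groups. Under GC and length offsets the log2 fold change was -0.19 for mt-Nd1 and -0.20 for mt-Nd2. The most abundant, mt-Co1, measured 5523 and 6071 against 4762 and 4990. Its difference from vehicle, a log2 fold change of -0.25 ± 0.0554, was the nearest to 0 among the 6 heavy-strand mRNAs, and its edgeR adjusted p was 0.265. Under the offsets it was -0.16.

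The rRNAs of the mitochondrial ribosome were also lower with MFI8 and did not overlap. The large-subunit mt-Rnr2 measured 1089 and 1157 CPM with vehicle and 795.5 and 896.5 with MFI8, a log2 fold change of -0.41 ± 0.0711 (edgeR adjusted p = 0.107). The small-subunit mt-Rnr1 measured 419.8 and 463.0 against 341.0 and 377.9, or -0.30 ± 0.068 (edgeR adjusted p = 0.276). Under GC and length offsets the log2 fold change was -0.28 for mt-Rnr2 and -0.14 for mt-Rnr1. The ratio of rRNA to heavy-strand mRNA counts overlapped between MFI8 and vehicle, with a log2 difference of -0.06 and an exact two-sided permutation p of 0.667. With MASM7 there were 9.457 and 9.252 rRNA counts per 100 heavy-strand mRNA counts, both below the 9.995 and 9.869 of vehicle, a log2 difference of -0.09 (exact two-sided permutation p = 0.33).

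The light-strand mRNA mt-Nd6 stood apart from this group. It measured 72.17 and 64.27 CPM with vehicle and 66.19 and 87.95 with MFI8, so that MFI8 1 lay between the vehicle libraries and MFI8 2 above both. The log2 fold change was 0.18 ± 0.114 (edgeR adjusted p = 0.621), and it was -0.04 without MFI8 2, 0.37 without MFI8 1, 0.10 without vehicle 2 and 0.41 under GC and length offsets. With the replicate number as a block it was 0.18 (edgeR adjusted p = 0.200), and with that block and the offsets 0.41 (edgeR adjusted p = 0.0149). A read over the bases that mt-Nd6 shares with mt-Nd5, or one from antisense RNA, could be told apart only by strand, and the strand setting of the counting is not given in the sources used here.

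**Figure D2:**
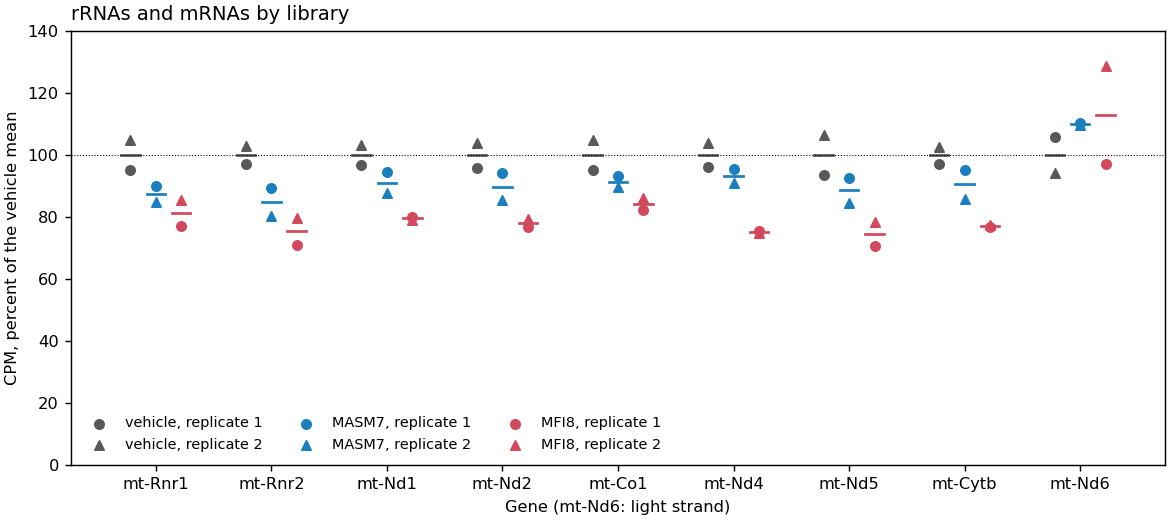
CPM of the 2 rRNAs and 7 counted mRNAs as percent of the vehicle mean, with a point for each library and a bar at each group mean. For the 8 heavy-strand genes the MFI8 points lie below the vehicle points, with the MASM7 means between those of vehicle and MFI8; for mt-Nd6 the groups' means lie in the opposite order.

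In edgeR, 0 of the 17 members tested passed an adjusted p of 0.05 with MFI8. With the replicate number as a block, 9 passed, all lower, against 5.04% of all genes; the labels do not say that a number marks a shared culture or day. At an unadjusted p under 0.05, 11 of the 17 differed, against 9.86% of all genes tested, and all 11 were lower (4.65% of all genes; 0 were higher, against 5.21%): the 8 rRNAs and mRNAs of the heavy strand with mt-Ti, mt-Tm and mt-Tt. In the DESeq2 Wald test, 8 of the 17 had an adjusted p under 0.05, the 6 heavy-strand mRNAs and both rRNAs, against 0.406% of the genes it adjusted. That test gave mt-Ti, mt-Tq and mt-Ta no adjusted p. Of the 17, 12 were lower in both MFI8 libraries than in both vehicle libraries, against 19.3% of all genes, and mt-Tq was higher in both, against 20.9%. The 6 heavy-strand mRNAs had a median log2 fold change of -0.37, beside 0.00 over all genes tested. Under offsets for transcript GC content and length this median was -0.23, still lower for all 6 mRNAs. The p-values here rest on the spread between these few libraries, with each gene's spread drawn towards that of other genes in edgeR and DESeq2.

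With MASM7, the heavy-strand mRNAs and rRNAs also measured lower than with vehicle, with log2 fold changes nearer to 0 than for MFI8, and the size rested on vehicle 2 and MASM7 2. The rRNA mt-Rnr2 measured 1002 and 903.1 CPM with MASM7, both below vehicle, with a log2 fold change of -0.24 ± 0.071 (edgeR adjusted p = 0.473). The rRNA mt-Rnr1 measured 397.1 and 375.2, or -0.19 ± 0.0679 (edgeR adjusted p = 0.473). Neither overlapped with vehicle. Under GC and length offsets these became -0.09 for mt-Rnr2 and -0.02 for mt-Rnr1, and mt-Rnr1 was -0.12 without vehicle 2. The mRNA mt-Nd5 measured 1748 and 1595, or -0.17 ± 0.0754 (edgeR adjusted p = 0.484). The other heavy-strand mRNAs had log2 fold changes from -0.16 for mt-Nd2 to -0.10 for mt-Nd4, and the highest MASM7 library was below the lowest vehicle library for all 6.

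The margin between vehicle 1 and MASM7 1 was small. The log2 ratio of MASM7 1 to vehicle 1 was -0.01 for mt-Nd5 and -0.01 for mt-Nd4, while that of MASM7 2 to vehicle 2 was -0.33 and -0.19. The median log2 fold change of the 6 heavy-strand mRNAs was -0.14, beside 0.00 over all genes tested. Without vehicle 2 it was -0.08, without MASM7 2 it was also -0.08, and with offsets for GC content and length it was 0.00. The mRNA mt-Nd6 measured 75.39 and 74.75 CPM with MASM7, above both vehicle libraries, with a log2 fold change of 0.14 ± 0.113 (edgeR adjusted p = 0.672). It was 0.06 without vehicle 2, 0.22 without vehicle 1 and 0.37 under the offsets.

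For MASM7 against vehicle, edgeR gave 0 of the 17 members an adjusted p under 0.05, as for all genes tested (0%), and the DESeq2 Wald test gave 0 as well (0.00747% of the genes it adjusted). With the replicate block in edgeR 2 passed, both rRNAs, against 3.88% of all genes, and with the block in DESeq2 0 did. At an unadjusted p under 0.05, 10 of the 17 differed, against 10.2% of all genes, and all 10 were lower (4.88% of all genes; 0 were higher, against 5.32%). Without overlap, 11 members were lower (21.6% of all genes) and 2, mt-Tl1 and mt-Nd6, were higher (21.2%). Those at an unadjusted p under 0.05 were mt-Rnr1, mt-Rnr2, mt-Nd1, mt-Nd2, mt-Co1, mt-Nd5, mt-Cytb, mt-Tm, mt-Tt and mt-Tp. Both comparisons share the vehicle libraries, so their values are not independent.

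**Figure D3:**
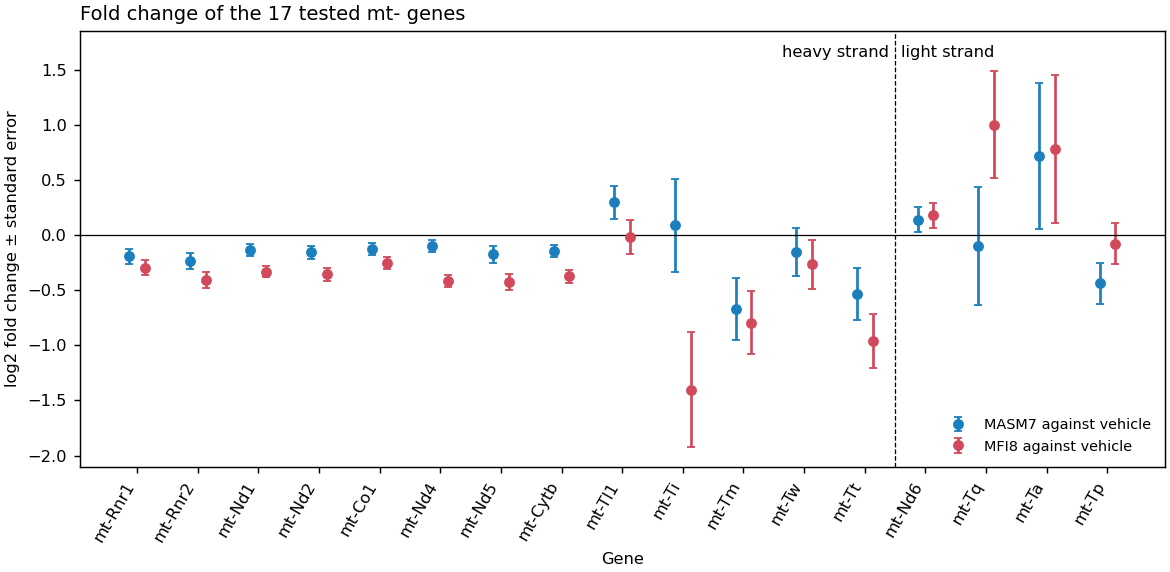
log2 fold change with its standard error for the 17 tested mt- genes, MASM7 and MFI8 each against vehicle, heavy-strand genes left of the dashed line and light-strand genes right of it. With MFI8 the heavy-strand values run from -1.40 for mt-Ti to -0.02 for mt-Tl1, where 49.3% of all genes are below 0. Of the 4 light-strand values 3 are above 0, beside 7239 of all 14290 genes tested. Among those 3 members, mt-Nd6 and mt-Ta overlap with vehicle. Error bars are widest for the tRNAs.

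Against MASM7, the MFI8 libraries measured lower for the heavy-strand mRNAs, most of all mt-Nd4. This mRNA measured 699.3 and 666.9 CPM with MASM7 and 553.2 and 547.4 with MFI8, a log2 fold change of -0.31 ± 0.0546 (edgeR adjusted p = 0.247). The other values were -0.12 for mt-Co1, -0.20 for mt-Nd1, -0.20 for mt-Nd2, -0.25 for mt-Nd5 and -0.23 for mt-Cytb, and the groups overlapped for none of the 6. Without MASM7 1 the value of mt-Nd2 was -0.13. For mt-Nd6 the log2 fold change was 0.04 ± 0.112 and the groups overlapped; it was -0.18 without MFI8 2 and 0.23 without MFI8 1. In edgeR 0 of the 17 members had an adjusted p under 0.05 (0% of all genes), and in the DESeq2 Wald test 1 had, mt-Nd4 (0.231% of the genes it adjusted). With the replicate block in edgeR 5 passed, against 3.07% of all genes. At an unadjusted p under 0.05, 8 of the 17 differed (7.18% of all genes): 7 members were lower (2.95%) and 1, mt-Tq, was higher (4.23%). Without overlap between the groups, 9 members were lower and 2 higher, mt-Tq and mt-Tp, against 19.6% of all genes in either direction.

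The mixture of mRNAs shifted little. Among the mitochondrial mRNA counts, mt-Co1 took 36.42% and 36.84% under vehicle, 36.34% and 37.44% under MASM7, and 38.22% and 38.76% under MFI8, both MFI8 libraries being the highest. The share of mt-Nd4 was 4.643% and 4.622% under vehicle, 4.703% and 4.8% under MASM7 and 4.439% and 4.251% under MFI8, both MFI8 libraries being the lowest. The MFI8 shares of mt-Nd5, at 10.68% and 11.47%, were also the lowest, though only just below the 11.48% of MASM7 2, and so were those of mt-Cytb. For mt-Nd1 and mt-Nd2 the MFI8 libraries did not lie on 1 side of the other 4. These shares sum to 100%, so 1 share cannot move alone.

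The ratio of the strands was examined by setting mt-Nd6 against the sum of the heavy-strand mRNAs. Its level depends on how well each mRNA was captured as polyA RNA, which was not measured. Per 100 heavy-strand mRNA counts there were 0.4782 and 0.3915 mt-Nd6 counts under vehicle, 0.5096 and 0.541 under MASM7, and 0.5341 and 0.6878 under MFI8. Every treated library was above both vehicle libraries, and MFI8 overlapped with MASM7. The difference in mean log2 ratio from vehicle was 0.49 for MFI8 and 0.28 for MASM7, each with an exact two-sided permutation p of 0.33. It rests much on single libraries: it was 0.30 for MFI8 without MFI8 2, and 0.14 for MASM7 without vehicle 2 or 0.42 without vehicle 1. Between MFI8 and MASM7 it was 0.21 (exact two-sided permutation p = 0.667), and 0.02 without MFI8 2.

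Base composition differs between the mRNAs of the strands. G made up 28.13% of the bases of mt-Nd6 and between 5.88% and 16.12% of those of the 12 heavy-strand mRNAs. The GC content of the heavy-strand mRNAs, 31.86% to 41.08%, lay under the median of 49.52% over 13989 tested genes. The part of base composition in these results was not tested beyond the offsets above, and those offsets use GC content without regard to strand.

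The tRNAs were counted far less and varied more. On the heavy strand, the threonine tRNA mt-Tt had 81 and 111 counts under vehicle, 92 and 73 under MASM7 and 56 and 53 under MFI8. In CPM, mt-Tt was below both vehicle libraries in every treated library, with a log2 fold change of -0.96 ± 0.244 for MFI8 (edgeR adjusted p = 0.336) and -0.53 ± 0.232 for MASM7 (edgeR adjusted p = 0.485). Under GC and length offsets these were -0.59 and -0.23. The isoleucine tRNA mt-Ti had 10 and 21 counts under vehicle, 24 and 17 under MASM7 and 4 and 9 under MFI8. Both MFI8 libraries were below all others in CPM, at -1.40 ± 0.521 against vehicle (edgeR adjusted p = 0.433), which was -0.86 without vehicle 2.

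The methionine tRNA mt-Tm (chrM:3845-3913) had 40 and 61 counts under vehicle, 46 and 33 under MASM7 and 28 and 37 under MFI8, with log2 fold changes of -0.67 ± 0.28 for MASM7 and -0.79 ± 0.289 for MFI8 (edgeR adjusted p = 0.479 and 0.425). Both treated groups were below vehicle in CPM without overlap. The MASM7 value of mt-Tm was -0.41 without vehicle 2 and -0.43 without MASM7 2, and its MFI8 value was -0.51 under the offsets. The tryptophan tRNA mt-Tw (chrM:4950-5016) had 67 to 117 counts and log2 fold changes of -0.15 ± 0.215 for MASM7 and -0.27 ± 0.22 for MFI8. Its sign was not stable: the MASM7 value was 0.09 without MASM7 2, -0.44 without MASM7 1 and 0.10 under the offsets, and the MFI8 value 0.05 under the offsets. The leucine tRNA mt-Tl1 (chrM:2676-2750), next to mt-Rnr2, had 118 and 164 counts under vehicle, 212 and 221 under MASM7 and 133 and 179 under MFI8. In CPM both MASM7 libraries of mt-Tl1 were above vehicle, at 0.30 ± 0.15 (edgeR adjusted p = 0.518), which was 0.15 without vehicle 1, 0.48 without vehicle 2 and 0.52 under the offsets, and MFI8 overlapped with vehicle at -0.02 ± 0.154.

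On the light strand, the proline tRNA mt-Tp had 130 and 115 counts under vehicle, 99 and 128 under MASM7 and 104 and 159 under MFI8. Its log2 fold change was -0.44 ± 0.188 for MASM7, without overlap (edgeR adjusted p = 0.483), and -0.08 ± 0.186 for MFI8, with overlap. The MASM7 value was -0.27 without vehicle 1, -0.28 without MASM7 1 and -0.23 under the offsets. The MFI8 value turned in sign: it was 0.09 without vehicle 1, 0.01 without MFI8 1 and 0.20 under the offsets, but -0.23 without vehicle 2. The glutamine tRNA mt-Tq had 14 and 10 counts under vehicle, 21 and 7 under MASM7 and 26 and 28 under MFI8. Both MFI8 libraries of mt-Tq were above all others in CPM, at 1.00 ± 0.484 against vehicle (edgeR adjusted p = 0.533). The alanine tRNA mt-Ta (chrM:5018-5086) had 3 to 18 counts, and its groups overlapped in each comparison. The tRNAs mt-Ti and mt-Tq, on opposite strands and overlapping at their ends, thus measured in opposite directions with MFI8, on counts of at most 28.

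Summed over all 22 tRNAs, light-strand counts per 100 heavy-strand counts were 47.4 and 29.49 under vehicle, 32.99 and 36.01 under MASM7 and 54.14 and 54.45 under MFI8. The MFI8 libraries were above the other 4, and the vehicle libraries spanned both MASM7 libraries. The difference in mean log2 ratio was 0.54 for MFI8 against vehicle (exact two-sided permutation p = 0.33), -0.12 for MASM7 against vehicle (p = 1.0) and 0.66 for MFI8 against MASM7 (p = 0.33). Leaving out single libraries was added here after seeing the data: the MFI8 difference from vehicle was 0.20 without vehicle 2 and 0.88 without vehicle 1, and that of MASM7 was -0.46 and 0.23. The sums behind these ratios were 133 to 208 light-strand and 290 to 491 heavy-strand counts a library. Under vehicle, mt-Tp alone gave 130 of 164 and 115 of 133 light-strand counts. Since the strand setting of the counting is not given, reads from the opposite strand may be among the counts of any tRNA. Whether the counts came from mature tRNAs or from precursors was not tested. The ratio of heavy-strand tRNA to heavy-strand mRNA counts overlapped between each compound and vehicle.

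**Figure D4:**
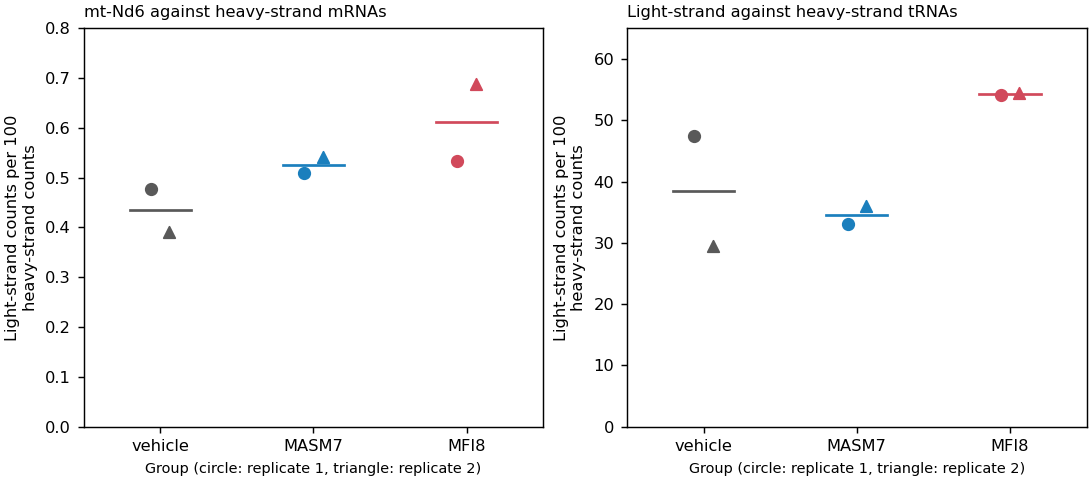
Light-strand counts per 100 heavy-strand counts in each library, for mRNAs (left, mt-Nd6 against the 12 heavy-strand mRNAs) and tRNAs (right), with a bar at each group mean. For mRNAs all 4 treated libraries are above both vehicle libraries; for tRNAs the 2 MFI8 libraries, at 54.14 and 54.45, are above the other 4.

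Counts were also found on nuclear copies of mitochondrial DNA. Of the nuclear transcripts, those of 16 pseudogenes matched a member over at least 100 bases at 90% identity or more, and 11 had at least 10 counts in a library. The copies of mt-Atp6, mt-Co3 and mt-Co2 on chromosome 1 led. The mt-Atp6 copy Gm10925 (chr1:24613974-24614651, 678 bases, all identical) had 176, 223, 155, 126, 162 and 133 counts in the library order used above. The mt-Co3 copy Gm28437 (chr1:24613189-24613971, 783 identical bases) had 175, 180, 173, 147, 149 and 138. The mt-Co2 copy Gm28661 had 149, 175, 137, 139, 124 and 124. Each thus had more counts than the mitochondrial gene it copies, in every library.

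In CPM, Gm28661 measured 6.533 and 6.956 under vehicle, 4.632 and 4.569 under MASM7 and 5.4 and 4.018 under MFI8, all treated libraries below vehicle. Its log2 fold change was -0.55 ± 0.169 for MASM7 and -0.53 ± 0.171 for MFI8 (edgeR adjusted p = 0.473 and 0.398). For Gm10925 the values were -0.82 ± 0.223 and -0.57 ± 0.222, and for Gm28437 -0.47 ± 0.189 and -0.45 ± 0.191. The next copies by count were Gm13340 (a copy of mt-Co1), Gm13341 (mt-Co2) and Gm28438 (mt-Nd3), with -0.52, -0.54 and -0.38 for MASM7 and -0.57, -0.60 and -0.62 for MFI8.

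Of the 10 copies tested, 10 were lower with MFI8 (49.3% of all genes), 9 at an unadjusted p under 0.05 (4.65% of all genes), and 10 were lower with MASM7 (49.9%), 7 at an unadjusted p under 0.05 (4.88%), with 0 at an adjusted p under 0.05 in edgeR. Their median log2 fold change was -0.61 for MFI8 and -0.53 for MASM7, against -0.37 and -0.14 for the heavy-strand mRNAs; that difference was not tested. Between MFI8 and MASM7 the median over the copies was -0.10, and 0 of 10 had an unadjusted p under 0.05. Whether these reads came from the nuclear copies or from mitochondrial RNA cannot be told from the counts, so their values are uncertain for either source.

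**Figure D5:**
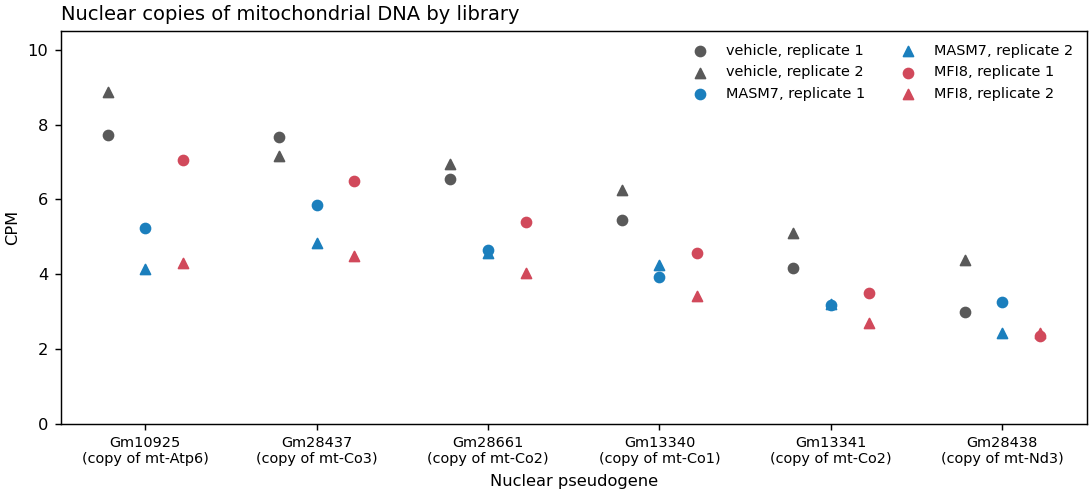
CPM of the 6 nuclear pseudogenes with the most counts among the copies of mitochondrial DNA, with a point for each library. For 5 of the 6 every treated library lies below both vehicle libraries, and for Gm28438 the MASM7 libraries overlap with vehicle. Of all genes tested, 19.3% were lower without overlap with MFI8 and 21.6% with MASM7.

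Nuclear genes that act on mitochondrial DNA or its RNA differed little beside the members. Of 40 such genes, all tested, 0 had an adjusted p under 0.05 in edgeR in any comparison. With MFI8, 4 were lower and 0 higher at an unadjusted p under 0.05, against 4.65% and 5.21% of all genes. Tfam, which packages mitochondrial DNA and starts its transcription, measured 80.23 and 84.66 CPM with vehicle and 73.34 and 73.75 with MFI8, a log2 fold change of -0.17 ± 0.0567 (edgeR adjusted p = 0.412), without overlap. Trnt1, which adds the CCA end of tRNAs, and Fastkd5, which acts in mitochondrial RNA processing, were at -0.14 and -0.20. With MASM7, 3 were higher and 1 lower, against 5.32% and 4.88% of all genes, led by Tbrg4 (0.20), Elac2, the nuclease that cuts tRNA 3′ ends (0.19), and Fastk (0.16). The median over the 40 genes was 0.00 for MFI8 and 0.01 for MASM7, and 0 differed at an unadjusted p under 0.05 between the compounds.

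The nuclear genes for subunits of the respiratory chain and ATP synthase numbered 75, all tested. The list held 90 symbols, since ATP synthase subunits stand there under an older and a newer name. In edgeR, 0 of these 75 passed an adjusted p of 0.05 in any comparison. With MFI8, 8 were lower and 1 higher at an unadjusted p under 0.05, against 4.65% and 5.21% of all genes. They included the cytochrome c oxidase subunit Cox7b at -0.16, the ATP synthase subunit Atp5c1 at -0.12 and the complex III subunit Uqcrq at 0.16. With MASM7, 7 were higher and 1 lower, against 5.32% and 4.88% of all genes, led by Uqcrq (0.21), the ATP synthase subunit Atp5g1 (0.21) and the complex I subunit Ndufs7 (0.23). Between the compounds, 2 were lower with MFI8, Uqcrfs1 at -0.20 and Sdhd at -0.14, and 0 were higher, against 2.95% and 4.23% of all genes. In that comparison 67 of the 75 values were below 0, against 50.5% of all genes, with a median of -0.06 beside 0.00 over all genes. Examined after seeing the data, between 45 (limma on TPM, with 37.1% of all genes below 0) and 69 (no filter, with 49.4%) were below 0 in the settings run, with medians from -0.07 without MASM7 1 to -0.01 in limma. Against vehicle the medians were -0.02 for MFI8 and 0.03 for MASM7, beside -0.37 and -0.14 for the heavy-strand mRNAs.

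The labelled cell type was checked by 10 fibroblast markers, summing to 8810 to 11130 CPM, with Col1a1, Col1a2 and Vim abundant and Thy1 at 0.239 to 0.642. In each group this sum was lower in the replicate 2 library, and its part in the results was not tested. Epithelial, endothelial and muscle markers summed to under 1 CPM in every library, and leukocyte markers to 3.14 to 4.30. Neural markers summed to 49.9 and 49.2 under vehicle, 56.7 and 53.6 under MASM7 and 62.4 and 55.7 under MFI8, above vehicle in all 4 treated libraries. Of them, Tubb3 measured 25.03 and 26.03 under vehicle and 31.95 to 35.49 in the treated libraries, Map2 overlapped with vehicle in both treated groups and Gfap was under 1 CPM. The part of these markers in the results was not tested. Libraries held 22791792 to 30677751 counts on genes.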

How the data were processed

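RNA-seq was measured in 6 libraries of WT MEFs, grouped by the treatment in the labels. Per the labels and the methods of the study, the authors trimmed reads with Trimmomatic, used STAR to align them to GRCm38, and used featureCounts for counts over exons; versions, annotation release and strand setting are not given in the sources used here. The deposited raw counts are whole numbers. The deposited normalized values are a signal on the scale of counts, each library's raw counts over its own size factor, and served only to check this. The authors also deposited TPM, used for levels between genes.

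Raw counts of all 6 libraries were fitted in edgeR 4.0.16 (R 4.3.3) with TMM normalization, filterByExpr (14290 genes kept, all 17 members with at least 10 counts in any library among them) and 1 coefficient per group. The quasi-likelihood F test was adjusted by Benjamini-Hochberg over all genes tested. Each standard error is the absolute log2 fold change over the root of F. TMM factors were 0.991 to 1.01. Class sums and strand ratios were compared by exact permutation in scipy 1.17.1. Transcripts were matched to nuclear GENCODE vM21 transcripts with blastn 2.17.0 and by exact windows of 50 bases. Scripts were tested on simulated data. Alternatives were other scalings and filters, 2-group fits, the DESeq2 1.42.0 Wald test, limma 3.58.1 on log2(TPM + 1), GC and length offsets (lowess, span 0.3), a replicate block and leaving out each library.

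The named genes were the mRNAs, the rRNAs, tRNAs with at least 10 counts in any library, up to 6 nuclear copies by count, and from each gene list the 3 members with the smallest unadjusted p under 0.05. The other tRNAs, Gm28439 and Gm11408 were named for their position or sequence. Members and lists were chosen with earlier results of these data known. Intervals and limits from counts cover counting error only.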

Additional observations from a re-analysis of the deposited data

How the results depend on the processing

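For MFI8 against vehicle, the count of members with an adjusted p under 0.05 went from 0 to 9 with no filter beyond 1 count (256 of all genes) and to 8 in DESeq2 (49). For MASM7 against vehicle it went from 0 to 1 with no filter (127), and for MFI8 against MASM7 from 0 to 6 with no filter (168) and to 1 in DESeq2 (29). DESeq2 size factors, library size alone, at least 10 counts in every library, 2-group fits, limma on TPM, GC and length offsets, and leaving out any library each left these counts at 0. The cause of these moves was not tested.

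The replicate number was added as a block. The labels do not say what samples of the same number shared beyond that number, and each comparison had 2 numbers. Deviations of same-numbered samples from their group means correlated at r = 0.152 for vehicle with MFI8, 0.188 for vehicle with MASM7 and 0.165 for MASM7 with MFI8. These values are across 14290 genes, which are not independent. With the replicate block in edgeR, 9 members passed for MFI8 against vehicle, 2 for MASM7 against vehicle and 5 for MFI8 against MASM7, against 5.04%, 3.88% and 3.07% of all genes. With the block in DESeq2 the counts were 8 for MFI8 against vehicle (220 of all genes), 0 for MASM7 against vehicle (205) and 2 for MFI8 against MASM7 (110). With the block and GC and length offsets, 9 passed for MFI8 against vehicle (666), 8 lower and mt-Nd6 higher at 0.4143, without mt-Tt. For MASM7 against vehicle 1 passed (217), mt-Tl1, higher at 0.523, and neither rRNA, and for MFI8 against MASM7 7 passed (960), all lower.

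The median log2 fold change of the heavy-strand mRNAs for MFI8 against vehicle was -0.2318 with GC and length offsets and -0.2316 with these and the block, and it lay between -0.4121 and -0.3127 with a library left out. For MASM7 against vehicle it was 0.0005 with the offsets, and -0.2049 to -0.0833 with a library left out. For MFI8 against MASM7 it was -0.2859 to -0.1468 with a library left out.

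Single members turned in sign as follows. For MFI8 against vehicle, with the offsets alone and then with the block added, mt-Tl1 was at 0.2648 and 0.2644, mt-Tw at 0.0504 and 0.0638 and mt-Tp at 0.1976 and 0.2034; limma on TPM gave mt-Tl1 0.0239. For MASM7 against vehicle, the same pair of settings gave mt-Nd1 0.0235 and 0.0229, mt-Nd2 0.0111 and 0.0104, mt-Nd4 0.0493 and 0.049, mt-Tq 0.1758 and 0.1271, and mt-Tw 0.0951 and 0.0896. With a library left out, the MFI8 against vehicle values ran from -0.1674 to 0.1645 for mt-Tl1, -0.2293 to 0.09 for mt-Tp and -0.0427 to 0.3693 for mt-Nd6. The MASM7 against vehicle values ran from -0.2856 to 0.637 for mt-Ti, -1.1088 to 0.4972 for mt-Tq and -0.4448 to 0.0904 for mt-Tw. The MFI8 against MASM7 values ran from -0.3626 to 0.1555 for mt-Tm, -0.3559 to 0.1793 for mt-Tw, -0.4675 to 0.666 for mt-Ta and -0.1818 to 0.2313 for mt-Nd6. Added after seeing the data, the tRNA strand ratio of MASM7 against vehicle ran from -0.46 to 0.225. The 6 heavy-strand mRNAs and both rRNAs kept their lower sign for MFI8 against vehicle in every setting run. The strand ratio of the mRNAs and the mitochondrial share of counts, taken from raw counts per library and not from the fits, kept their signs with any library left out. Counts of the tRNAs, at most 221 a library, limit what can be detected there.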

Other observations

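Divided by the number of 50-base windows that no nuclear transcript shares, mt-Co1 had 172.3 and 209.0 counts a window with vehicle and mt-Nd1 had 84.6 and 99.3, without overlap, although the TPM of these genes overlapped. On the same scale mt-Nd4 had 32.0 and 38.2 and mt-Nd5 24.5 and 30.8, also without overlap and in the reverse of their order in TPM. These values assume that no read was counted from a shared window, which was not tested.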
